A study of Mus musculus with 2 samples.

Results

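The transcription factor p53 and 9 genes that it is known to switch on were followed in single cells of mouse pancreatic tumours that are driven by a protein that binds p53. The 10 genes (Trp53, Mdm2, Cdkn1a, Ccng1, Bax, Bbc3, Pmaip1, Sesn2, Eda2r and Phlda3) were chosen by name, and each was matched by symbol to 1 of the 32285 genes in the counts of both libraries. There was 1 library per group, both from tumours at 6 weeks of age. EL1 mice, of the FVB/N strain, carry SV40 large T antigen and firefly luciferase, each under the elastase I promoter, which is active in acinar cells of the pancreas. WTg mice come from a cross of EL1 with a line that carries the open reading frame of Mettl3, an RNA methyltransferase, under the CAG promoter, which is active in most cells. Both groups therefore carry T antigen and luciferase. The Mettl3 line was made in BL/6 mice, so strain and transgene cannot be told apart, and the number and sex of the animals in each library were not given.

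p53 is kept low by Mdm2, a ubiquitin ligase that p53 itself induces, and in stressed or damaged cells it accumulates and raises genes that halt the cell cycle, trigger apoptosis or adjust metabolism. Large T antigen holds p53 in a complex in which its activity as a transcription factor is blocked, although p53 protein often accumulates there. Levels of p53 protein and of T antigen were not measured here, and 0 of the genes counted were named for T antigen or luciferase, so cells that make T antigen were not identified directly.

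In the promoter windows of RefSeq (GRCm38.p6, 250 bases before to 50 bases after each transcript start), 9 of the 10 members had a window, and a match to the p53 response element was found for 2 of them. The element was searched as a pair of its 10-base blocks with 0 to 3 bases between them, with the 4 central bases of each block intact and at most 2 mismatches in the rest; it reads alike on both strands. A match was present in 0.603% of 32851 windows and for 0.714% of 27025 genes. Of 30 other p53 targets with a window, it was present for 3. Sequence outside the windows was not searched. The matches of the 2 members are shown, with the central bases in capitals, and a match is a description of letters only. The Cdkn1a match (chr17:29090928-29090947, plus strand, 1 mismatch) began 51 bases before a transcript start, and the Bax match (chr7:45467079-45467099, minus strand, 2 mismatches) began 201 bases before one. Another Cdkn1a window (chr17:29093519-29093818), of a different transcript start, had 0 matches.
Cdkn1a: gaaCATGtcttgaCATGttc
Bax: aggCAAGctttgaaCTTGcgg

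Barcodes with at least 500 genes, at least 1000 UMIs (unique molecular identifiers, which mark single RNA molecules) and at most 20% mitochondrial UMIs were kept, which gave 1113 EL1 cells and 905 WTg cells. Tumour cells were kept cells outside the macrophage gate with UMIs in 2 or more of Epcam, Cdh1, Krt8 and Krt18 and in fewer than 2 genes of each list of other cell types. They numbered 1014 in EL1, with 35669479 UMIs, and 761 in WTg, with 28848955 UMIs. These are epithelial cells of a tumour, and normal epithelial cells were not separated from them. Mettl3, the gene of the transgene, was at 15.2 CPM (UMIs per 1000000 UMIs of the same cells) in EL1 tumour cells against 68.1 CPM in those of WTg, a log2 ratio of 2.16 (2.02 to 2.30). This matched the labels. The libraries shared 15 barcodes, of which 0 were among the kept cells.

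The macrophage gate (UMIs in 2 or more of C1qa, C1qb and C1qc, subunits of complement C1q) took 57 EL1 cells and 84 WTg cells. Many of these went against the name. UMIs in 2 or more of the 4 epithelial genes were present in 41 of the 57 and in 58 of the 84. Of 8 other macrophage genes (Ptprc, Tyrobp, Fcer1g, Cd68, Csf1r, Mrc1, Adgre1 and Lyz2), 3 or more were present in 28 gated EL1 cells (49.1%) and 37 gated WTg cells (44.0%). In these cells the 4 epithelial genes together had a median of 140 CPM in EL1 against 76.1 CPM in WTg. In the other 29 and 47 gated cells the medians were 12042 and 12413.3 CPM, and none of the 8 genes was present in 25 and 27 of them. C1qa was at 28.9 CPM in EL1 tumour cells against 104 CPM in WTg tumour cells, where C1qb was at 0.617 and 0.312 CPM. The gated cells are therefore called C1q-gated cells here, and the cells with 3 or more of the 8 genes, a cut set after the gate had been looked at, are given beside them as C1q-gated cells with macrophage genes.

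**Figure D1:**
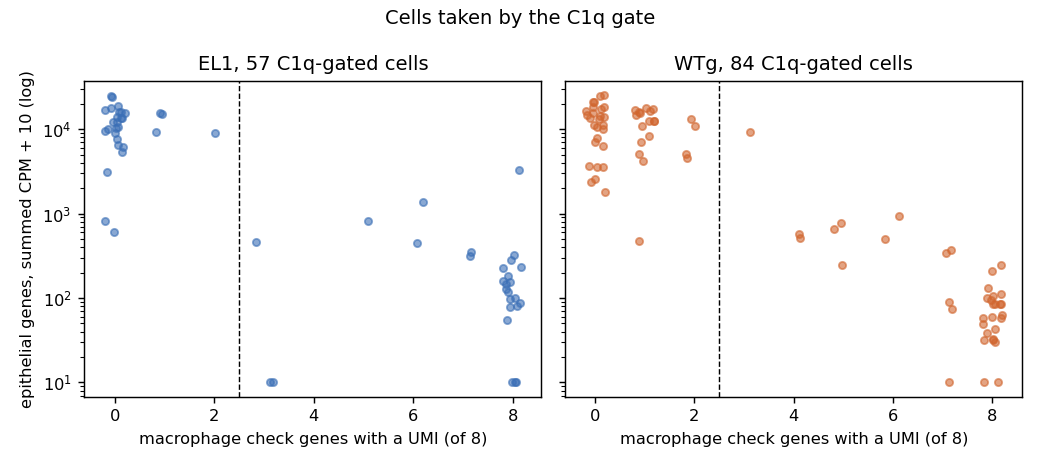
Each point is a cell taken by the C1q gate, by library. The horizontal axis counts how many of 8 other macrophage genes had a UMI (points are spread sideways), the vertical axis is the summed CPM of 4 epithelial genes plus 10 on a log scale, and the dashed line is the cut at 3 genes. Cells left of the line (29 in EL1, 47 in WTg) lie mostly at epithelial levels, with medians of 12042 and 12413.3 CPM.

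With 1 library per group no difference between the groups could be tested, and fewer cells that express a gene cannot be told apart from less RNA per cell in a sum. Each value below is a sum of UMIs over cells as CPM, with an exact 95% Poisson interval, and each ratio has an exact conditional binomial interval; PCR, cells and animals are not covered, only counting error. Eda2r, the receptor of ectodysplasin A2, had 0 UMIs in tumour cells and C1q-gated cells of both libraries, where 3 UMIs would be 0.0841 CPM in the EL1 and 0.104 CPM in the WTg tumour cells. The other 9 members all had at least 10 UMIs in tumour cells.

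Trp53 and its inhibitor Mdm2 were both lower in WTg than in EL1 tumour cells. Trp53 was at 47.9 CPM (45.7 to 50.3) in EL1 against 35.2 CPM (33.1 to 37.5) in WTg, which is a log2 ratio of -0.44 (-0.56 to -0.33). Mdm2 was at 78.3 CPM (75.5 to 81.3) against 52.3 CPM (49.7 to 55.0), a log2 ratio of -0.58 (-0.67 to -0.49). The intervals of the 2 libraries did not overlap for either gene. For scale, the median log2 ratio over 15161 genes with UMIs in both was -0.19, and the middle 50% of genes lay between -0.50 and 0.13.

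The members that halt the cell cycle went apart. Cdkn1a, which encodes the cyclin-dependent kinase inhibitor p21, was at 600 CPM (592 to 608) in EL1 against 670 CPM (661 to 680) in WTg tumour cells, which is a log2 ratio of 0.16 (0.13 to 0.19). Ccng1, which encodes cyclin G1, was at 30.6 CPM (28.9 to 32.5) against 15.9 CPM (14.5 to 17.5), a log2 ratio of -0.94 (-1.10 to -0.78). Cdkn1a was thus slightly higher in WTg, while Ccng1 was just short of 2-fold lower.

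Of the apoptotic members, Bax, which permeabilizes mitochondria, was at 101 CPM (98.1 to 105) in EL1 against 70.5 CPM (67.5 to 73.7) in WTg, which is a log2 ratio of -0.52 (-0.60 to -0.44). Pmaip1, which encodes the BH3-only protein Noxa, was at 25.8 CPM (24.2 to 27.6) against 14.8 CPM (13.4 to 16.2), a log2 ratio of -0.81 (-0.98 to -0.64). Bbc3, which encodes the BH3-only protein Puma, was the exception of this group, at 11.6 CPM (10.5 to 12.8) against 14.9 CPM (13.5 to 16.3), a log2 ratio of 0.36 (0.16 to 0.56).

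The remaining members that were detected had the widest ratios, in opposite directions. Sesn2, a stress-induced inhibitor of mTORC1 signalling, was at 6.87 CPM (6.04 to 7.78) in EL1 against 15.8 CPM (14.4 to 17.4) in WTg, which is a log2 ratio of 1.21 (0.98 to 1.44). Phlda3, an inhibitor of Akt signalling, had 199 UMIs or 5.58 CPM in EL1 against 70 UMIs or 2.43 CPM in WTg, which is a log2 ratio of -1.20 (-1.62 to -0.80). These 2 of the 9 members were past 2-fold, against 15.4% of the 15259 genes with at least 10 UMIs, of which 6.89% were higher and 8.51% lower. The median over the 9 members was -0.52, with 6 of them below the median of all genes. With the mean of per-cell CPM in place of the sums, Phlda3 was at -0.81 and no longer past 2-fold, Ccng1 at -1.05 and past it, and Sesn2 at 1.70.

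**Figure D2:**
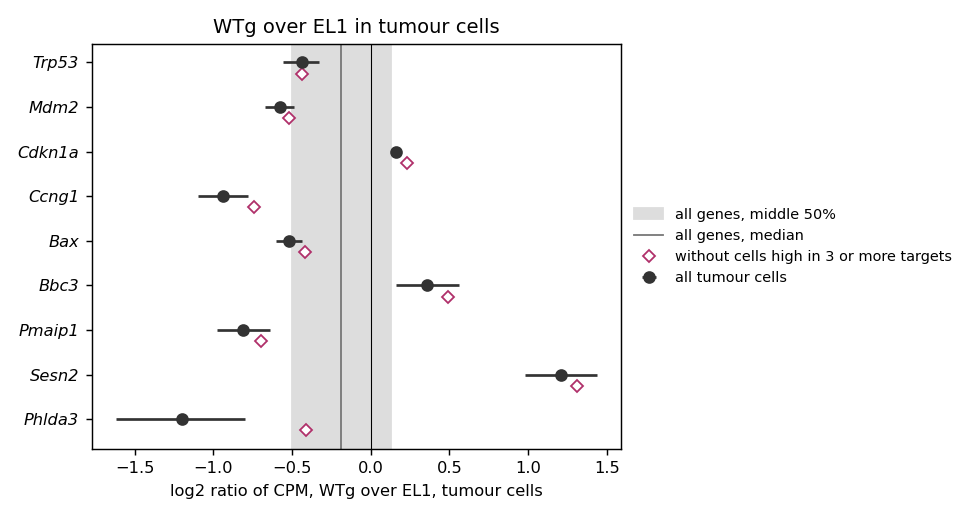
Log2 ratio of CPM, WTg over EL1, for 9 members in tumour cells (filled points, bars are 95% counting intervals) and the same without the cells high in 3 or more target members (open diamonds). The grey band holds the middle 50% of all genes, from -0.50 to 0.13, and its line their median of -0.19; Sesn2 lies right of the band at 1.21 and Phlda3 moves from -1.20 to -0.41 without those cells.

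The tumour cells of the libraries also fell largely into separate clusters. No step aligned the libraries before clustering, so a difference in composition cannot be told apart from a shift of a whole library. In a Leiden clustering made without these genes, 8 of 13 clusters had at least 90% of their cells from 1 library, and 5 clusters held at least 20 cells of each. Ratios within a cluster were read where both libraries had a UMI and the sum reached 10. Trp53 had a negative log2 ratio of WTg over EL1 in 5 of 5 clusters, but its interval lay below 0 in 2 and included 0 in 3. Bax was negative in 4 of 5, with 3 intervals below 0 and 2 that include 0. Mdm2 and Pmaip1 were negative in 4 of 4 with 3 intervals below 0 each, and Ccng1 was negative in 4 of 4 with 1 interval below 0. Bbc3 was positive in 4 of 4, from 0.07 to 0.51, and all 4 intervals include 0, so no cluster showed it higher beyond counting error. Sesn2 was positive in 3 of 4, with log2 ratios from -0.91 to 1.89 and 2 intervals above 0, and the mean of its 4 log2 ratios was 0.45, under 2-fold. Sesn2 was past 2-fold in 1 cluster, cluster 6, at 1.89 (0.59 to 3.56). Phlda3 had such a ratio in 1 cluster, at -0.38 (-1.21 to 0.41), and in cluster 5 it had 0 UMIs in EL1 and 20 UMIs, or 5.15 CPM, in WTg, the direction opposite to that of the sums. Cdkn1a was positive in 3 of 5 clusters, with 3 intervals above 0, and negative in 2, with 1 interval below 0, so its direction was not common to the clusters.

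In tumour cells that were cycling (3 or more of Mki67, Top2a, Cenpf, Cdk1 and Birc5), members differed little from the remaining tumour cells. There were 256 cycling cells in EL1 and 215 in WTg. Cdkn1a, although an inhibitor of the cell cycle, was at 669 CPM in cycling and 553 CPM in other EL1 tumour cells, and at 695 and 653 CPM in WTg. Trp53 was higher in cycling cells of both libraries, by log2 ratios of 0.26 (0.12 to 0.40) and 0.27 (0.09 to 0.45). So was Pmaip1, by 0.24 (0.04 to 0.43) and 0.60 (0.32 to 0.88), where the medians over all genes were 0.06 and 0.14. Cycling cells were deeper, with a median of 44975.5 against 23597 UMIs in EL1 and 47884 against 30360.5 in WTg. In EL1 no member was past 2-fold, against 11.6% of genes, and in WTg only Phlda3 was, at 3.73 against 1.49 CPM (log2 ratio 1.33, 0.59 to 2.09), against 9.95% of genes. With the mean of per-cell CPM that ratio was 0.75, under 2-fold. Sesn2 was at 8.75 CPM in cycling and 5.61 CPM in other EL1 tumour cells, whereas in WTg it was at 15.4 and 16.1 CPM. The log2 ratio of WTg over EL1 for Sesn2 was therefore 0.82 (0.48 to 1.16) in cycling cells and 1.52 (1.21 to 1.85) in the others. Taking cycling cells alone, 0 of 9 members were past 2-fold between the libraries, against 14.2% of genes, and taking the other tumour cells alone 2 of 9 were, Sesn2 and Phlda3, against 15.2% of genes.

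Tumour cells were next set against C1q-gated cells of the same library. By the gate as given, the differences were small. Of the gated cells, 29 of 57 in EL1 and 47 of 84 in WTg had fewer than 3 of the 8 macrophage genes. The part of these cells in the small differences was not tested. The log2 ratio of tumour over C1q-gated cells lay between -0.48 and 0.96 for 8 members in EL1 and between -0.70 and 0.87 for 9 members in WTg. The exception was Phlda3 in EL1, at 3.56 (1.06 to 8.87), which rests on 1 UMI in the gated cells. Thus 1 of 9 members was past 2-fold in EL1, against 16.0% of genes, and 0 of 9 in WTg, against 16.7%.

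Against the C1q-gated cells with macrophage genes, Cdkn1a was higher and Bax lower in tumour cells of both libraries. Cdkn1a was at 275 CPM (231 to 325) in the 28 EL1 cells and 205 CPM (177 to 237) in the 37 WTg cells, against 600 and 670 CPM in tumour cells, log2 ratios of 1.13 (0.88 to 1.38) and 1.71. Bax was at 227 CPM (187 to 273) and 213 CPM (184 to 245), against 101 and 70.5 CPM, log2 ratios of -1.16 (-1.43 to -0.88) and -1.59 (-1.80 to -1.38). Cdkn1a and Bax thus differed in opposite directions, and Mdm2 was on the side of Bax.

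Mdm2 was at 181 CPM (145 to 222) in the EL1 cells with macrophage genes and at 84.5 CPM (66.9 to 105) in the WTg ones. The log2 ratios of tumour over these cells were -1.21 (-1.51 to -0.89) and -0.69 (-1.02 to -0.35). Trp53 itself was at 46.1 CPM (29.3 to 69.2) and 44.9 CPM (32.4 to 60.7), and its ratios of 0.05 (-0.54 to 0.72) and -0.35 (-0.80 to 0.13) include 0. Ccng1 gave 0.13 in EL1, with an interval that includes 0, and -1.35 (-1.83 to -0.83) in WTg. Sesn2 gave 1.30 (0.17 to 2.76) in WTg from 6 UMIs in the smaller arm. In all, 3 of 9 members in EL1 and 4 of 9 in WTg were past 2-fold, shares near those of all genes, at 37.0% and 41.8%.

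**Figure D3:**
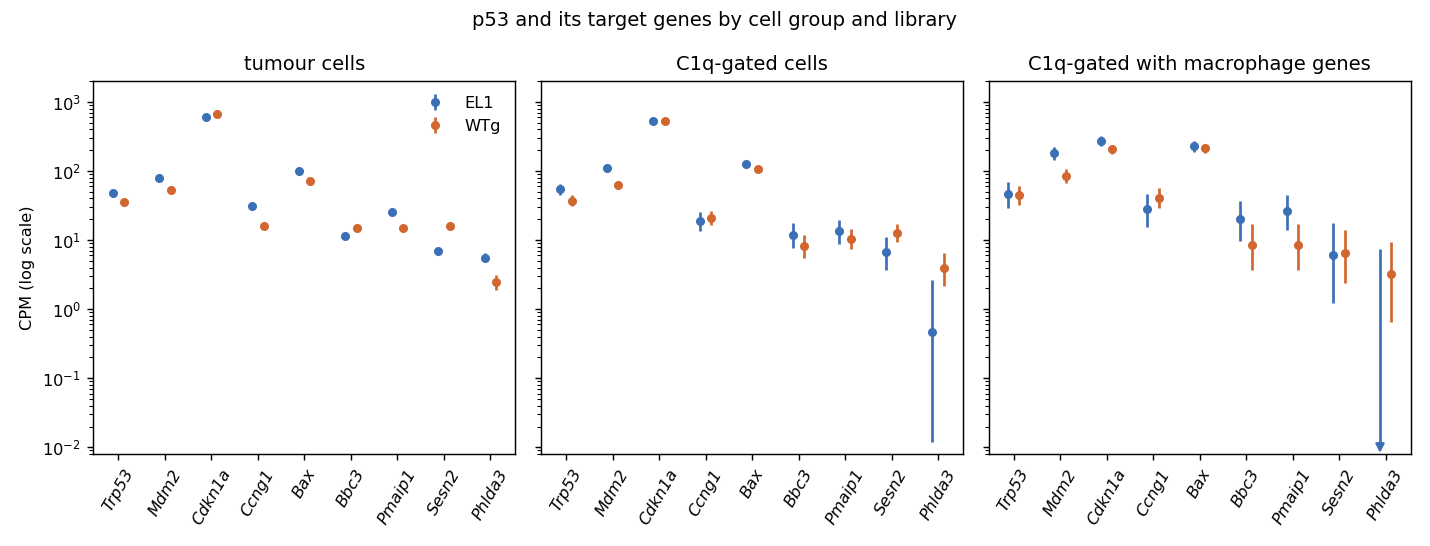
CPM on a log scale of 9 members in tumour cells, all C1q-gated cells and the C1q-gated cells with macrophage genes, EL1 in blue and WTg in orange; bars are exact 95% Poisson intervals and the triangle at the bottom marks 0 UMIs of Phlda3. Cdkn1a falls from 600 and 670 CPM on the left to 275 and 205 CPM on the right, while Bax goes from 101 and 70.5 to 227 and 213 CPM.

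WTg over EL1 in the C1q-gated cells gave Mdm2 a log2 ratio of -0.79 (-1.06 to -0.51) and Trp53 -0.53 (-0.90 to -0.16), and Cdkn1a -0.01 (-0.12 to 0.10). Only Phlda3 was past 2-fold, on 14 UMIs against 1, while 11.5% of all genes were. In the cells with macrophage genes Mdm2 was at -1.10 (-1.55 to -0.64), Pmaip1 at -1.61 (-3.08 to -0.23) and Bbc3 at -1.23 (-2.77 to 0.26), so that 3 of the 7 members with at least 10 UMIs were 2-fold lower, against 16.0% of genes in either direction and 8.75% lower. The counts behind Pmaip1 and Bbc3 were 8 UMIs each in WTg and 13 and 10 in EL1. Mettl3 in these cells had a log2 ratio of 1.18 (-0.44 to 3.21).

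Other p53 target genes were read from a list of 37. In tumour cells 6 of the 37 were 2-fold lower in WTg and 0 were higher, where 8.51% of all genes were lower and 6.89% higher. The list's median was -0.41, 26 of its genes lay below the median of all genes, and 1 of the 6, Zfp365, had an interval that includes 0 (-2.69 to 0.09). The furthest were Rap2b, a Ras-family GTPase, at -3.06 (-3.68 to -2.50), the TRAIL receptor Tnfrsf10b at -1.56 (-2.35 to -0.83), the glutaminase Gls2 at -1.43 (-1.58 to -1.29), the epoxide hydrolase Ephx1 at -1.33 (-1.58 to -1.07) and the thiamine transporter Slc19a2 at -1.27 (-1.49 to -1.05). Against the cells with macrophage genes the list went both ways, with 11 of 37 higher and 10 lower in EL1 tumour cells, where 19.0% of all genes were higher and 18.0% lower. In WTg tumour cells 11 of 36 were higher and 11 lower, where 21.6% of all genes were higher and 20.2% lower. The growth inhibitor Btg2 was at 1751.2 CPM in EL1 tumour cells and 144 CPM in those cells, while Gdf15, a stress-induced cytokine, was at 19.5 and 925 CPM. In WTg the same genes were at 1321.1 against 105 CPM and at 12.3 against 1343.4 CPM.

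Of 11 regulators of p53, 9 had at least 10 UMIs in tumour cells and Cdkn2a was past 2-fold. Cdkn2a, whose p19Arf product blocks Mdm2 and whose p16 product blocks cyclin D kinases (transcripts that 3′ counts do not tell apart), was at 231 CPM in EL1 against 84.5 CPM in WTg tumour cells, which is a log2 ratio of -1.45 (-1.52 to -1.38). It had 3 and 2 UMIs in the cells with macrophage genes, so tumour cells were above them by log2 ratios of 5.26 (3.71 to 7.54) and 5.30 (3.45 to 8.35). Mdm4, the partner of Mdm2, was at 40.7 and 36.8 CPM in tumour cells, a log2 ratio of -0.15 (-0.26 to -0.03).

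The sums above hide a small set of tumour cells in which several members were high at once. After the values had been seen, a member was called high in a cell where it had at least 3 UMIs and at least 3 times the count expected from the library's tumour cells at that depth, over the 8 members other than Trp53 and Eda2r. In EL1, 18 of 1014 tumour cells were high in 3 or more members (1.78%, exact binomial interval 1.06 to 2.79), and 8 of these in 5 or more. In WTg, 3 of 761 were (0.394%, 0.0814 to 1.15), with at most 4 members. These intervals overlap, but they treat the cells of 1 library as independent and leave out the spread between animals. Expected counts came from each library's own tumour cells, so the count that made a member high differed between the libraries. A difference between the shares was therefore not tested. Just below the cut, 15 EL1 cells and 24 WTg cells were high in 2 members, and just above it 4 and 2 cells were high in 3. Shallow cells cannot reach 3 UMIs of a rare gene, and the 18 cells had a median of 53401 UMIs against 27662 in the other EL1 tumour cells.

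The cell with the most Bax among the 18 had 56163 UMIs in all. It held 29 UMIs of Mdm2 where 4.40 were expected, 29 of Ccng1 for 1.72, 204 of Cdkn1a for 33.7, 66 of Bax for 5.69, 15 of Pmaip1 for 1.45 and 8 of Phlda3 for 0.313. Its Trp53 count was 5. Over the 18 cells, Bax ranged from 4 to 66 UMIs with a median of 10, Cdkn1a from 22 to 204 with a median of 75, and Phlda3 from 0 to 14 with a median of 3.50. Ccng1 was high in 14 of the 18, Phlda3 in 13, Bax in 12, Cdkn1a in 11, Pmaip1 in 10, Mdm2 and Bbc3 in 8 each, and Sesn2 in 4.

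These values chose the cells, so they are a description. Genes that the choice did not use were then compared between the 18 cells and the other 996 EL1 tumour cells. Of the wider list, 17 of 37 genes were 2-fold higher and 1 was lower, against 7.42% of all 14264 genes higher and 6.12% lower, and the list's median log2 ratio was 0.87 where that of all genes was 0.00. The intervals of 20 genes lay above 0. With a minimum of 50 UMIs it was 16 of 36 genes, against 4.48% of all genes. Cells of 1 library are not replicates, and no test was made. Of the 18 cells, 8 came from 1 cluster of 69 EL1 cells, described below. The other 996 cells were not matched to the 18 by cluster or depth.

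Tnfrsf10b was furthest, at 31.0 CPM in the 18 cells and 1.29 CPM in the others, a log2 ratio of 4.58 (3.85 to 5.30). Gdf15 was at 176 and 15.5 CPM, although 1 cell held 39.6% of its UMIs. The D-glutamate cyclase Dglucy was at 15.5 and 1.29 CPM, the spindle protein Psrc1 at 25.5 and 3.85 CPM, and Rap2b at 46.5 and 7.10 CPM. In the 18 cells Tnfrsf10b had 28 UMIs in 9 cells, Dglucy 14 in 8, Psrc1 23 in 12 and Rap2b 42 in 9. The highest cell held 28.6%, 21.4%, 30.4% and 33.3% of these UMIs. Zmat3, an RNA-binding zinc finger protein, was at 76.5 and 13.0 CPM, with 17.4% of its UMIs in the highest cell. In a ranking by this ratio of the 11483 genes with at least 50 UMIs and with UMIs in the 18 cells, Tnfrsf10b was 5, Dglucy 12 and Gdf15 13. Members were kept in this ranking, with Phlda3 at 4 and Ccng1 at 20, but are not read from it, since their counts chose the cells. The 3 genes at the top came mostly from 1 cell, as Sprr1a had 100% of its UMIs in a single cell, Areg 90.9% and Alb 86.2%.

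Not all p53 targets were higher in the 18 cells. Gls2 was lower, at 17.7 against 48.2 CPM (log2 ratio -1.44, -2.25 to -0.74), and Btg2 was at 1707.7 against 1752.3 CPM. Trp53 RNA was at 62.1 and 47.6 CPM, a log2 ratio of 0.38 whose interval, -0.03 to 0.77, includes 0. Among the regulators, 0 of 9 were 2-fold apart, with Mdm4 at -0.20 (-0.76 to 0.30) and Cdkn2a at 0.12 (-0.08 to 0.31). The acinar markers were alike, at 71320.2 and 73997.2 summed CPM, while the neuroendocrine markers were at 1040.6 and 3934.8 CPM. The median mitochondrial share was 3.30% and 4.14%, and 4 of the 18 cells passed the cycling gate. Scrublet called 0 of the 18 doublets, but it called only 2 of the 1113 kept EL1 cells (0.180%). With so few calls, this does not show whether any of the 18 are doublets. The parts of depth and of cluster in the differences between the 18 cells and the others were not tested.

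**Figure D4:**
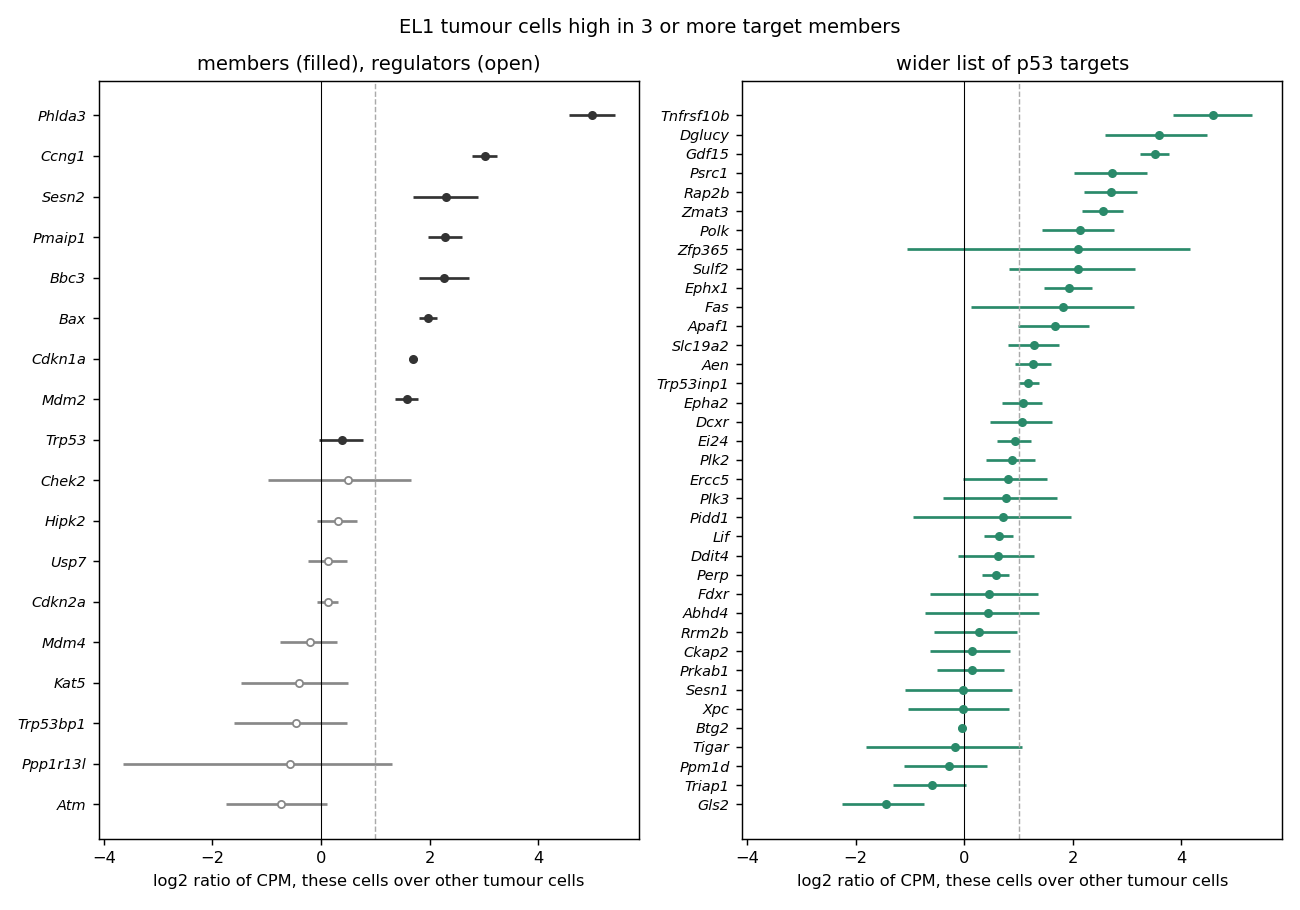
Log2 ratio of CPM in 18 EL1 tumour cells high in 3 or more target members over the other 996, for members (filled) and p53 regulators (open) on the left and for 37 wider targets on the right; bars are 95% counting intervals and the dashed line is 2-fold. Members other than Trp53 lie above 1 because they chose the cells. Of the wider list, which did not, 17 lie at or above 1 and Gls2 lies at -1.44.

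The 18 EL1 cells were chosen for high counts of these members, and 3 WTg cells met the rule against their own library's counts. Leaving out the 18 cells must lower the EL1 levels, and the following values are a description. Without them and the 3 WTg cells, the log2 ratio of WTg over EL1 for Phlda3 went from -1.20 to -0.41, for Ccng1 from -0.94 to -0.74 and for Bax from -0.52 to -0.42. Trp53 stayed at -0.44 and Mdm2 went from -0.58 to -0.52. Phlda3 was then no longer past 2-fold, while Sesn2, at 1.31, was.

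Across the clusters, 8 of the 18 cells were in cluster 10, a group of 69 EL1 cells led by Hmox1, Slc16a3, Bnip3, Slc4a4, Anxa2 and Cd9. It had Mdm2 at 102 CPM (90.7 to 114), which overlaps cluster 0 at 93.4 CPM (86.3 to 101), Cdkn1a at 959 CPM, Pmaip1 at 56.3 CPM and Phlda3 at 13.5 CPM. Without the 8 cells it had 81.1, 756, 40.2 and 1.50 CPM of these genes, and Ccng1 went from 42.8 to 15.4 CPM. The 8 cells were chosen for high counts of members, so a fall followed from the choice. Such cells were left out of cluster 10 only, while clusters 0 and 3 kept 2 each. As a description, cluster 10 was then below the EL1 cells of clusters 0, 3 and 5 in Mdm2. The interval of cluster 5 there, 74.9 to 114 CPM, includes 81.1, and its WTg cells were at 65.1 CPM. In Cdkn1a cluster 10 was then below the EL1 cells of clusters 5 and 9.

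Other clusters had their own mix of members. Cluster 11, led by Fos, Hspa1a, Egr4, Hspa1b, Fosb and Klf2, had the highest Bbc3 in both libraries, at 37.7 CPM in EL1 against 52.5 CPM in WTg, and Sesn2 at 24.9 and 28.2 CPM. Its Cdkn1a was only 294 and 199 CPM. Cluster 5, led by Serpina1b and other Serpina1 genes, had Cdkn1a at 814 and 970 CPM, while its Sesn2 was at 7.24 and 3.86 CPM. Cluster 9, EL1 cells led by Atp4b and Atp4a, had Ccng1 at 43.8 CPM beside Mdm2 at 36.9 CPM. Bbc3 and Sesn2 thus had their highest EL1 values in cluster 11, where Cdkn1a was among its lowest. Cluster 6, with a median of 2945 UMIs per cell and led by haemoglobin genes, held the highest Sesn2 of WTg, at 37.4 CPM, and its part in the Sesn2 difference was not tested.

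**Figure D5:**
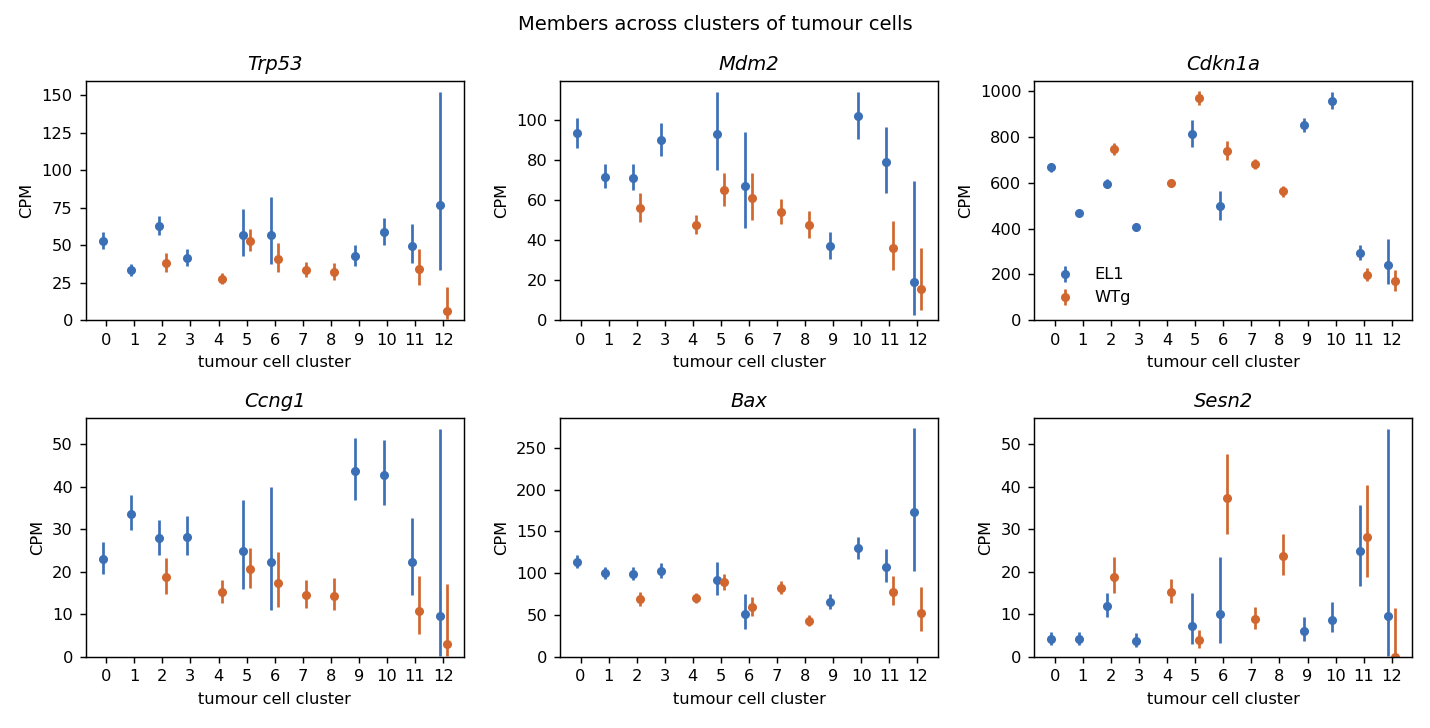
CPM of 6 members in each cluster of tumour cells with at least 20 cells of a library, EL1 in blue and WTg in orange, with exact 95% Poisson intervals. Cdkn1a reaches 959 CPM in cluster 10 and 970 CPM in cluster 5 and lies at 294 and 199 CPM in cluster 11, where Sesn2 is at 24.9 and 28.2 CPM.

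Over the 18 points of cluster by library, the genes most like Trp53 among 8474 were Wasl, Naa20 and Trp53rkb, with Pearson correlations of log2(CPM + 1) of 0.97, 0.96 and 0.95. For Mdm2 they were Zhx2, Sbds and Sertad1 (0.95, 0.95 and 0.94), for Cdkn1a Nap1l1, Pkp2 and Tapbpl (0.87 each), and for Ccng1 Imp4, Eif4a1 and G3bp1 (0.93, 0.92 and 0.92). The points share libraries, and cluster 12, with a median of 3896.5 UMIs per cell, is shallow. Trp53, Mdm2 and Ccng1 had 8, 2 and 1 UMIs there in EL1 and 2, 5 and 1 in WTg. Bbc3, Sesn2 and Phlda3 had 0 UMIs there in WTg. The part of this cluster in the correlations was not tested.

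Positions of the members are from GENCODE M21 on GRCm38. Trp53 lies on chromosome 11 (69580359 to 69591873, plus strand), Mdm2 on chromosome 10 (117688875 to 117710758, minus strand), Cdkn1a on chromosome 17 (29090976 to 29100727, plus strand) and Phlda3 on chromosome 1 (135766119 to 135769136, plus strand). Bax, on chromosome 7 (45461697 to 45466898, minus strand), and Sesn2, on chromosome 4 (132492032 to 132510501, minus strand), overlap the predicted genes Gm45808 and Gm12981 on the same strand, with which reads could be shared.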

How the data were processed

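Tumour tissue was dissociated with collagenase D and DNase I and run on 10x Chromium 3′ v3.1 chemistry, 1 library per group. The authors deposited UMI counts per gene and barcode made with Cell Ranger 6.0.2 (file header); the submitters' processing notes also name R 4.1, Seurat 4.0.5 and GRCm38. Whether intronic reads were counted is not given in the sources used here. Kept EL1 cells had a median of 26543 UMIs and kept WTg cells 34836, so 3 UMIs correspond to 0.0790 and 0.0909 CPM over all kept cells.

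Counts were summed over cells and divided by all UMIs of those cells (numpy 2.4.6, scipy 1.17.1). An arm with 0 UMIs was set to 3 and gave a bound, counted as past 2-fold only in the direction the counts allow. Genes needed at least 10 UMIs over both arms. The median over all genes is over genes with UMIs in both arms. Clusters were made in scanpy 1.11.5 (2000 variable genes, 30 components, 15 neighbours, leidenalg 0.10.2 at resolution 1) without members, listed targets, regulators and cycling genes. TMM factors came from edgeR 4.0.16. Ratios and intervals were run on simulated counts drawn from a Poisson model, the one that the intervals assume. This checks the computation, and not whether counts of these cells follow that model.

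The members and gene lists were chosen with earlier results of these data known. Named were all 10 members, of the other lists at most the 5 furthest past 2-fold in each direction, Mdm4 and Cdkn2a, and for 4 members the 3 genes of highest correlation over clusters. The cut at 3 macrophage genes, the rule for cells high in several members and the genes named from those cells and from clusters were chosen after values had been seen. Alternatives were other cell filters, gates, scalings, doublet removal, the deposited dense count table, another minimum and another clustering resolution.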

Additional observations from a re-analysis of the deposited data

Results flagged for a closer look

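Ccng1 went in opposite directions in the libraries when tumour cells were set against all C1q-gated cells, with a log2 ratio of 0.69 (0.24 to 1.19) in EL1 and -0.40 (-0.76 to -0.03) in WTg, so that the intervals lay on opposite sides of 0. The difference between the libraries was not tested. Against the C1q-gated cells with macrophage genes the EL1 ratio was 0.13, with an interval that includes 0, and the WTg ratio -1.35 (-1.83 to -0.83).

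In barcodes with over 20% mitochondrial UMIs, which entered no comparison, Sesn2 was at 16.8 CPM in WTg and at 3.73 CPM in EL1. Its counting intervals in the libraries did not overlap. This flag looked only for members higher in WTg. Mdm2 went the other way in these barcodes, at 91.5 CPM (74.3 to 112) in EL1 against 49.7 CPM (39.6 to 61.6) in WTg, also without overlap.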

How the results depend on the processing

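No paired analysis was possible because there was 1 library for each genotype, which also means that no library could be left out. The median log2 ratio over members, WTg over EL1 in tumour cells, was -0.52; it was -0.39 with TMM scaling, which moved the median of all genes from -0.19 to -0.06, and -0.42 without cells high in 3 or more target members. The mean of per-cell CPM took Phlda3 from -1.20 to -0.81 and Ccng1 from -0.94 to -1.05, in cycling over other WTg cells Phlda3 from 1.33 to 0.75, in WTg tumour over C1q-gated cells Sesn2 from 0.33 to 1.07 and Bax and Bbc3 to the 2-fold line, and in C1q-gated cells, WTg over EL1, Mdm2 from -0.79 to -1.20. TMM left Sesn2 and Phlda3 past 2-fold in tumour cells, took Sesn2 in C1q-gated cells from 0.93 to 1.04, and changed the wider list from 0 higher and 6 lower to 1 higher, Epha2, and 6 lower. Tumour over C1q-gated cells had a median of 0.05 in EL1 and -0.08 in WTg; with gated cells holding 2 or more epithelial genes left out it was -1.15 and 0.38, and with 3 or more macrophage genes required it was -0.35 in WTg. The -1.15 includes 2 lower bounds, of Sesn2 and Phlda3. For Phlda3 in EL1, with 3.56 from 1 UMI, these last 2 settings leave 0 UMIs in the smaller arm, so that -1.46 and -0.11 are lower bounds and show no change of direction. Cycling over other WTg tumour cells went from 0.09 to 0.25 with 4 or more cycling genes. With clusters of both libraries weighted equally, Trp53 went from -0.44 to -1.10 (cluster 12, with 2 WTg UMIs, gave -3.64), Sesn2 from 1.21 to 0.45 and Cdkn1a from 0.16 to 0.02. Of 398 alternative values for single members, 319 stayed within their counting interval. Alternatives to a gate were run only where that gate enters. Scrublet called 2 EL1 and 3 WTg cells. Cells of 1 library share their animals, and the spread between animals is unknown. Depth limits the members below 10 CPM in C1q-gated cells.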
